A study of Ovis aries with 3 samples.

Results

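A set of 10 genes of the integrin adhesion system was followed across single cells of whole sheep embryos. They were the beta subunit gene *ITGB1*, the alpha subunit genes *ITGA1*, *ITGA3*, *ITGA4*, *ITGA5*, *ITGA6*, *ITGA8*, *ITGA9* and *ITGAV*, and the ligand gene *VCAM1*. The set was chosen by name, and all 10 members were found among the 26478 genes of the count matrices. Integrins are receptors made of 1 alpha and 1 beta subunit that bind matrix proteins, or proteins on other cells, and tie them to the actin cytoskeleton. The beta subunit encoded by *ITGB1* is shared by many receptors, and the alpha subunit beside it sets much of what the receptor binds, such as collagen, laminin, fibronectin or VCAM1. The question addressed was which alpha subunit transcripts accompanied *ITGB1* in endothelial, epithelial, nephric, neural, somitic and mesenchymal marker-defined cells of each library.

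The series holds 3 droplet libraries, each 1 sample. E19 HSTS was a whole embryo of Hulunbuir short-tailed sheep at day 19, a breed in which the animals genotyped in the study were homozygous for a mutation of the mesoderm gene *T*. E19 HS was a whole embryo of Hu sheep at day 19, and E16 HS was made from Hu sheep embryos at day 16, with the wild-type *T* allele in the Hu sheep genotyped. The sample title of E16 HS names 1 embryo while the design text and the methods name 3, and whether they were pooled could not be settled. All embryos were dissociated with collagenase and passed through red blood cell lysis, so cell shares are those of cells that withstood both steps. E16 HSTS was not analysed here. With 1 library per condition there was no replicate, so no test was made between libraries or classes. Intervals given in brackets are exact 95% intervals that cover counting error only.

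Cells with 200 to 6000 genes, 1000 to 30000 unique molecular identifiers (UMIs, 1 per captured transcript end) and at most 10% mitochondrial UMIs were kept, which left 9618 E19 HSTS cells, 10629 E19 HS cells and 11329 E16 HS cells. The median kept cell held 8675, 6900 and 9046 UMIs respectively, and library pairs shared 31 to 37 kept barcodes. A cell joined a class when at least 2 of that class's gate genes had a UMI and no other gate list had as many. No member of the integrin set was a gate gene. This gave 157 E19 HSTS, 248 E19 HS and 52 E16 HS endothelial-like cells, and triplets of values below keep this library order unless another is named. Epithelial-like cells numbered 642, 853 and 1288, neural-like cells 965, 1420 and 335, somitic-like cells 175, 101 and 161, and mesenchymal-like cells 2224, 2975 and 3581. Nephric-like cells numbered 24, 27 and 22, under the minimum of 50. Nephric values are therefore given for every kept cell with at least 2 nephric gate genes, a definition chosen after the data were seen (227, 171 and 173 nephric marker-positive cells, of which 124, 79 and 69 were also epithelial-like). Between 2175 and 3019 cells per library joined no class.

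Marker genes kept out of the gates were checked in each class. At least 2-fold higher levels than in the other kept cells were found for 6, 6 and 5 of 6 endothelial check genes, 5, 5 and 4 of 5 epithelial, 5, 5 and 4 of 5 neural, 4, 3 and 4 of 5 somitic, 6, 6 and 6 of 6 mesenchymal, and 5, 4 and 6 of 6 nephric check genes in the marker-positive cells. The check genes did not all keep to their own class. In epithelial-like cells 5 of 6 nephric check genes were at least 2-fold higher in each library. In mesenchymal-like cells 2 of 5 epithelial check genes were so too. These 5 summed to 1268, 1043 and 3173 CPM there, beside 1913, 1855 and 3265 CPM in epithelial-like cells. The somitic check genes summed to 151, 137 and 49.9 CPM in mesenchymal-like cells, beside 142, 134 and 103 CPM in somitic-like cells. The mesenchymal check genes summed to 763, 759 and 534 CPM in endothelial-like cells, beside 195, 205 and 807 CPM in mesenchymal-like cells. In endothelial-like cells only 2, 2 and 1 of these 6 genes were at least 2-fold higher than in the other kept cells. There 2, 3 and 2 of them had 0 UMIs. E16 HS differed from the E19 libraries in what its epithelial-like and mesenchymal-like classes held. Its epithelial-like cells were led by *KRT20*, *GRHL3* and *CERS3*, where *SFTA2*, *CALB1* and *SLC12A1* led in E19 HSTS and *UPK3A*, *TFCP2L1* and *CLDN8* in E19 HS, although *UPK3A* was also among the leading genes of E16 HS. Its mesenchymal-like cells had *FGF7* and *TBX20* among their leading genes behind *DCN* and *COL1A1*, and the epithelial keratin *KRT18* had a UMI in 84.6% of them, against 58.3% in E19 HSTS and 53.0% among those of E19 HS. The *KRT18* shares were 75.2%, 47.2% and 45.1% in the order E16 HS, E19 HSTS and E19 HS after each cell was thinned to 3000 UMIs, beside 14.3%, 2.60% and 2.48% of thinned erythroid-like cells. Erythroid-like cells held 45.5%, 28.6% and 26.1% of the kept UMIs and had low levels of most members, so ratios to all other kept cells are repeated below without them.

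*ITGB1* was the most abundant member by far and was present in every class. Over all kept cells its level was 158, 177 and 155 counts per 1e+06 UMIs (CPM), and 61.5%, 62.7% and 61.5% of cells had at least 1 *ITGB1* UMI. Because 1 UMI stands for 1 transcript end whatever the transcript's length, levels of different genes can be set side by side, although genes whose 3' ends are poorly annotated are counted low. On that scale *ITGA6* followed at 24.4, 23.6 and 36.2 CPM and *ITGAV* at 14.4, 16.1 and 21.4 CPM. The levels of *ITGA1*, *ITGA4*, *ITGA8*, *ITGA9* and *VCAM1* lay between 1.70 and 7.64 CPM. *ITGA3* and *ITGA5* were scarce, with 54 to 96 and 53 to 120 UMIs per library. Together the 8 alpha subunits gave 0.372, 0.338 and 0.509 UMIs per *ITGB1* UMI over all kept cells, so the beta subunit transcript outnumbered the sum of these alpha transcripts in each library.

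The highest *ITGB1* level among the described classes was in endothelial-like cells of all 3 libraries, at 559 CPM [521 to 599], 575 CPM [541 to 611] and 359 CPM [304 to 422]. Mesenchymal-like cells came next at 312, 283 and 219 CPM, and neural-like cells were lowest of the described classes at 177, 146 and 115 CPM. Between them stood epithelial-like cells at 260, 229 and 166 CPM, somitic-like cells at 262, 197 and 171 CPM, and nephric marker-positive cells at 256, 250 and 168 CPM. The intervals of these 3 neighbours overlapped at day 19 for E19 HSTS and at day 16, so their order is not resolved there. In E19 HS the intervals of nephric marker-positive and somitic-like cells just overlapped as well, at 229 to 273 and 166 to 231 CPM. Erythroid-like cells were far lower, with 26.3, 30.5 and 50.1 CPM.

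Against all other kept cells of the same library, the *ITGB1* level in endothelial-like cells was 3.68, 3.42 and 2.34 times as high. With erythroid-like cells left out of the comparison the ratios were 2.15 [2.00 to 2.31], 2.56 [2.40 to 2.72] and 1.89 [1.59 to 2.21]. In mesenchymal-like cells the corresponding ratios without erythroid-like cells were 1.27, 1.34 and 1.32, and in neural-like cells 0.62, 0.58 and 0.59. The order endothelial, mesenchymal, neural in each library is that of the levels above, which these ratios largely restate.

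**Figure D1:**
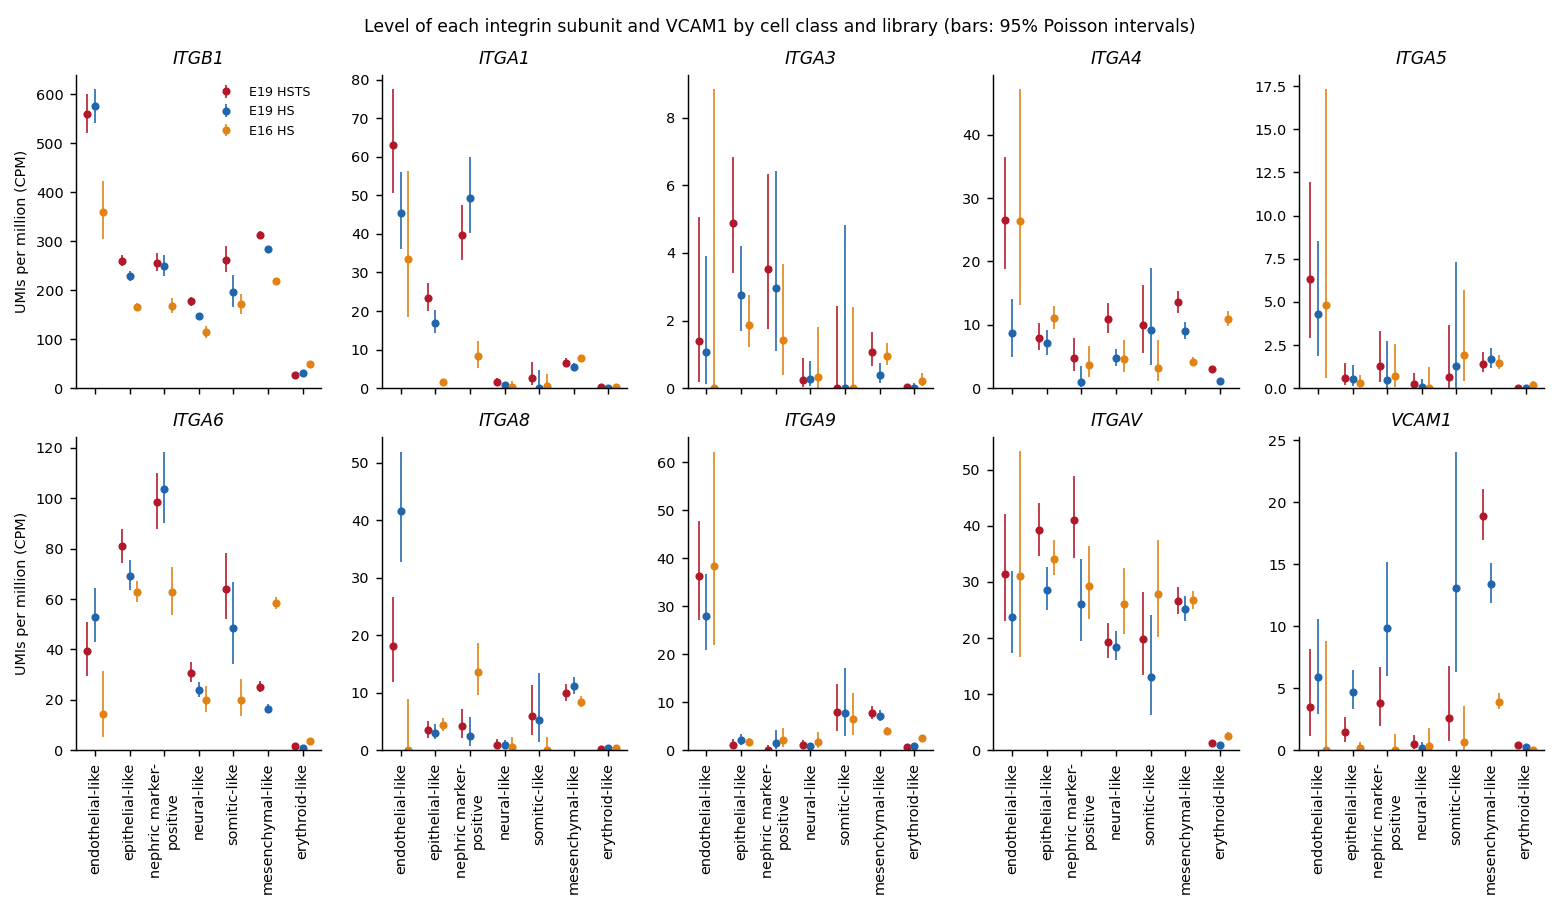
Level of each member (vertical axes, CPM, linear and scaled per gene) in the marker-defined classes and in erythroid-like cells, coloured by library, with bars for exact 95% Poisson intervals. *ITGB1* stands at 115 to 575 CPM in the 6 described classes, *ITGA9* is highest in endothelial-like cells, and *ITGA1* is high in endothelial-like and, at E19, nephric marker-positive cells.

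How much transcript of the 8 member alpha subunits stood beside *ITGB1* differed between classes. Alpha UMIs here and below are those of these 8, so *ITGA2*, described further below, is not counted. Nephric marker-positive cells had the most, with 0.753, 0.750 and 0.725 alpha UMIs per *ITGB1* UMI, followed by epithelial-like cells with 0.621, 0.569 and 0.711. In E16 HS their intervals of 0.629 to 0.835 and 0.667 to 0.758 overlapped, so their order is not resolved there. Somitic-like cells had 0.423, 0.433 and 0.352. Endothelial-like cells had 0.398, 0.358 and 0.413, although their *ITGB1* level was the highest, and neural-like cells had 0.368, 0.343 and 0.466. Mesenchymal-like cells had 0.295 and 0.271 at E19 and 0.511 in E16 HS. After thinning to 3000 UMIs per cell, at least 1 of the 8 alpha subunits was detected in 41.3%, 43.4% and 33.3% of endothelial-like cells, 41.4%, 42.7% and 34.1% of nephric marker-positive cells and 17.1%, 13.2% and 14.3% of neural-like cells, beside 2.18%, 1.35% and 5.77% of erythroid-like cells.

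The alpha subunits *ITGA6* and *ITGAV* made up most alpha UMIs in epithelial-like, nephric marker-positive, neural-like and somitic-like cells. *ITGA6*, a subunit of laminin receptors, gave 50.1%, 53.1% and 53.3% of alpha UMIs in epithelial-like cells and 50.9%, 55.3% and 51.5% in nephric marker-positive cells. *ITGAV*, whose receptors bind fibronectin, vitronectin and related ligands, was second in epithelial-like cells with 24.2%, 22.0% and 28.9%. In neural-like cells *ITGA6* led at E19 with 47.3% and 47.8%, while in E16 HS *ITGAV* stood at 48.8% [40.9 to 56.7] and *ITGA6* at 37.2% [29.8 to 45.1]. Somitic-like cells had the same arrangement, with *ITGA6* at 57.7% and 56.9% at E19 and *ITGAV* at 46.2% [35.8 to 56.9] beside *ITGA6* at 33.3% [23.9 to 43.9] in E16 HS. In both classes the intervals of the first and second subunit overlapped in E16 HS.

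Endothelial-like cells had no dominant alpha subunit. In E19 HSTS *ITGA1* led with 28.3% of alpha UMIs, followed by *ITGA6* with 17.6% and *ITGA9* with 16.4%. In E19 HS *ITGA6* with 25.7%, *ITGA1* with 22.0% and *ITGA8* with 20.2% had overlapping intervals. In E16 HS only 62 alpha UMIs were counted, and *ITGA9*, *ITGA1*, *ITGAV* and *ITGA4* gave 25.8%, 22.6%, 21.0% and 17.7% of them. Mesenchymal-like cells at E19 were likewise mixed, with *ITGAV* at 28.9% and 32.9%, *ITGA6* at 27.4% and 21.5%, *ITGA4* at 14.7% and 11.7%, and *ITGA8* at 10.8% and 14.6%. In E16 HS mesenchymal-like cells *ITGA6* alone gave 52.1% [50.6 to 53.6].

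**Figure D2:**
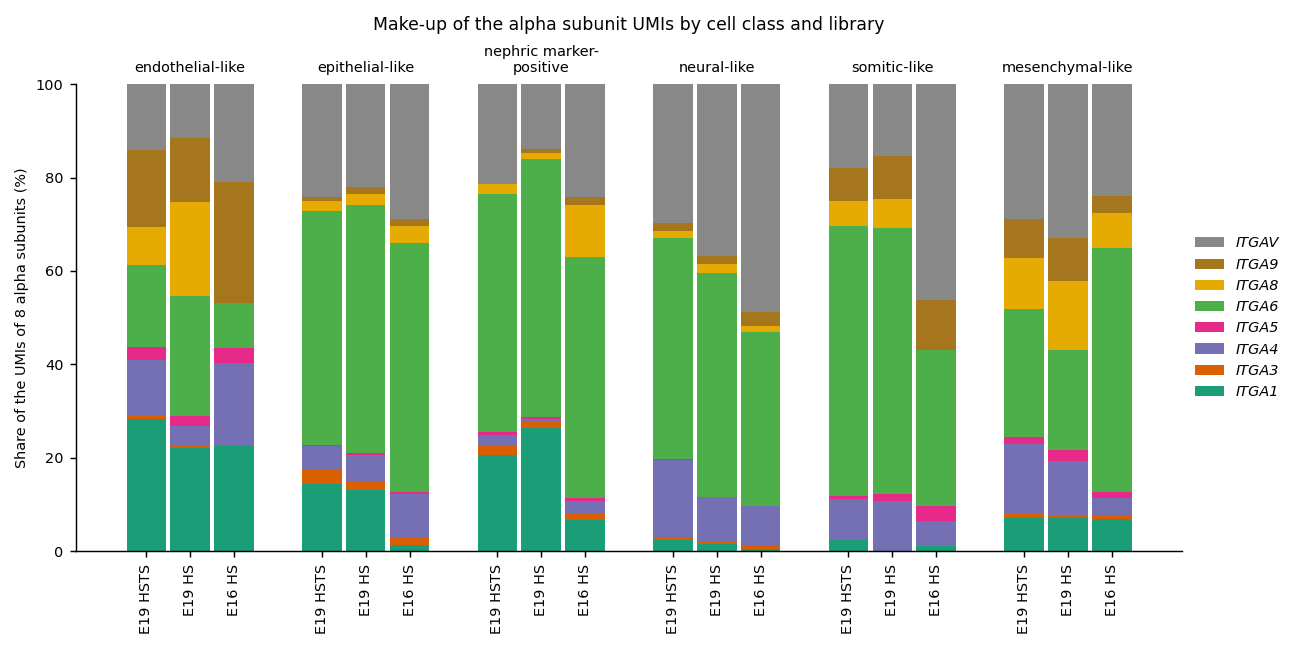
Share of each alpha subunit among the UMIs of the 8 alpha subunits (percent) by class and library. *ITGA6* is the largest share in epithelial-like and nephric marker-positive cells of each library, at 50.1% to 55.3%, whereas endothelial-like cells divide their alpha UMIs among several subunits.

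A member was counted as enriched in a class when its level was at least 2-fold that of all other kept cells in each of the 3 libraries. Genes needed at least 100 UMIs in each library, which 6 of the 8 alpha subunits, *ITGB1* and *VCAM1* had, and *ITGA3* and *ITGA5* did not. In endothelial-like cells 3 of 8 tested members met the rule (*ITGB1*, *ITGA1* and *ITGA9*), against 6.19% of all 9248 genes tested. In mesenchymal-like cells 2 of 8 did (*ITGA8* and *VCAM1*), against 3.75% of all genes, and in nephric marker-positive cells 1 of 8 did (*ITGA1*), against 2.69%. No member met it in epithelial-like cells (3.27% of all genes), neural-like cells (3.03%), somitic-like cells (1.47%) or the few nephric-like cells of the stricter definition (2.54%). These counts rest on 8 genes and are a description of 3 libraries.

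*ITGA1*, a subunit of a collagen and laminin receptor, met the rule in endothelial-like and in nephric marker-positive cells. In endothelial-like cells it reached 63.0 CPM [50.7 to 77.4], 45.4 CPM [36.2 to 56.2] and 33.5 CPM [18.3 to 56.3], which was 15.2, 11.1 and 10.0 times its level in the other kept cells and 8.42, 7.95 and 7.54 times without erythroid-like cells. Nephric marker-positive cells had 39.8 CPM [33.1 to 47.5] and 49.3 CPM [40.1 to 59.9] at E19. In E16 HS they had 8.23 CPM [5.22 to 12.3], with intervals well apart from both E19 libraries. That was 2.47 times the other kept cells of E16 HS. Without erythroid-like cells it was 1.85 times [1.15 to 2.81], so E16 HS then stood under 2-fold. The corresponding ratios were 5.65 in E19 HSTS and 9.03 in E19 HS.

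Epithelial-like cells followed the same split by day. Their *ITGA1* level was 23.5 and 17.0 CPM at E19 and 1.67 CPM in E16 HS, which was 6.51, 4.47 and 0.45 times that of the other kept cells. When nephric marker-positive cells were taken out of the epithelial-like class, 15.5, 10.7 and 0.947 CPM remained, so the gap between the days was there with and without them. Cells with fewer than 2 nephric gate genes detected stayed in, so some nephric cells may remain. At the other end *ITGA1* was at 1.60, 0.815 and 0.326 CPM in neural-like cells, on 13, 9 and 1 UMIs, and at 4, 0 and 1 UMIs in somitic-like cells. After thinning, *ITGA1* was detected in 16.7%, 13.2% and 8.33% of endothelial-like cells, against 0.434%, 0.296% and 0.311% of neural-like cells.

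*ITGA9*, whose receptor with the *ITGB1* product binds tenascin C and VCAM1 among others and is known from lymphatic vessels, was also highest in endothelial-like cells. Its level there was 36.4 CPM [27.2 to 47.7], 28.1 CPM [21.0 to 36.8] and 38.3 CPM [21.9 to 62.3], and the 3 intervals overlapped. The ratios to the other kept cells were 12.9, 9.10 and 11.9, and 7.81, 7.02 and 11.1 without erythroid-like cells. Mesenchymal-like and somitic-like cells were intermediate, with 7.75, 7.20 and 4.10 CPM and with 7.92, 7.86 and 6.47 CPM. Epithelial-like cells had 1.15, 2.09 and 1.74 CPM, and nephric marker-positive cells had 0, 3 and 6 UMIs, where 0 UMIs allow up to 0.964 CPM by the 3-count limit.

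*ITGA8*, the receptor subunit for nephronectin and a gene needed for kidney induction, was enriched in mesenchymal-like cells. It stood there at 9.95 CPM [8.54 to 11.5], 11.2 CPM [9.84 to 12.8] and 8.44 CPM [7.55 to 9.39], or 5.28, 3.74 and 3.02 times the other kept cells. Without erythroid-like cells the ratios were 2.57, 2.45 and 1.90, so 1 library then stood just under 2-fold. Endothelial-like cells held more than mesenchymal-like cells at E19, with 18.2 CPM [11.9 to 26.7] and 41.6 CPM [32.8 to 52.0], but in E16 HS they had 0 *ITGA8* UMIs, which allows up to 7.19 CPM. Nephric marker-positive cells showed the opposite order of days, at 4.18 and 2.46 CPM at E19 and 13.6 CPM [9.62 to 18.7] in E16 HS. Neural-like cells had at most 0.997 CPM.

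*ITGA6* was broad, present in each described class of each library. In epithelial-like cells it reached 81.0, 69.2 and 62.9 CPM, or 4.01, 3.59 and 1.94 times the other kept cells, so E16 HS fell just short of 2-fold. Without erythroid-like cells the ratios were 2.14, 2.50 and 1.41. Nephric marker-positive cells had similar or higher levels at 98.3, 103 and 62.6 CPM. Thinned cells with an *ITGA6* UMI made up 23.6%, 17.4% and 15.6% of epithelial-like cells against 0.612%, 0.213% and 1.28% of erythroid-like cells. *ITGA6* was at 64.1 and 48.5 CPM in somitic-like cells at E19 and at 20.1 CPM in E16 HS. In mesenchymal-like cells it was at 25.2 and 16.6 CPM at E19 and at 58.4 CPM in E16 HS.

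*ITGAV* was present in each described class. Its level lay between 23.8 and 31.5 CPM in endothelial-like cells, between 25.2 and 26.8 CPM in mesenchymal-like cells, between 28.6 and 39.2 CPM in epithelial-like cells and between 18.5 and 26.1 CPM in neural-like cells. Nephric marker-positive cells had 41.1, 26.1 and 29.3 CPM, and somitic-like cells 19.8, 13.1 and 27.8 CPM. Ratios to the other cells without erythroid-like cells were 1.68, 1.35 and 1.27 in epithelial-like cells, 1.69, 1.19 and 1.05 in nephric marker-positive cells, 1.07, 1.22 and 0.920 in mesenchymal-like cells, and 0.734, 0.806 and 0.928 in neural-like cells. The intervals of *ITGAV* in endothelial-like and mesenchymal-like cells overlapped in each library.

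*ITGA4*, the subunit of the main VCAM1 and fibronectin receptor of blood cells, had no class in which it was 2-fold higher in all libraries. Endothelial-like cells had 26.6 CPM [18.8 to 36.5], 8.64 CPM [4.94 to 14.0] and 26.4 CPM [13.2 to 47.2]. Mesenchymal-like cells had 13.5, 9.02 and 4.15 CPM, which was 2.37, 2.24 and 0.437 times the other kept cells and 1.48, 1.56 and 0.487 times without erythroid-like cells. Neural-like cells had 10.9 CPM [8.70 to 13.4] in E19 HSTS, above the 4.71 CPM [3.52 to 6.18] of E19 HS. Erythroid-like cells, which themselves can use this receptor, had 2.98, 1.10 and 11.0 CPM, and there *ITGA4* had the largest alpha share at 41.5%, 26.2% and 53.2%, although in E19 HS its interval overlapped that of *ITGAV*. The E16 HS endothelial-like cells also had 76.7 CPM of the blood cell adaptor gene *FERMT3* on 32 UMIs, against 0.700 and 2.16 CPM at E19, named here after its values were seen. Its part in the *ITGA4* level was not tested.

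*ITGA3*, a subunit of laminin receptors of epithelia, and *ITGA5*, the subunit of the classical fibronectin receptor, were too scarce for the rule. *ITGA3* was in epithelial-like cells at 4.90 CPM [3.39 to 6.85], 2.75 CPM [1.70 to 4.20] and 1.88 CPM [1.23 to 2.76], on 34, 21 and 26 UMIs, and these were 10.8, 6.75 and 2.67 times the other kept cells and 5.65, 4.63 and 2.05 times without erythroid-like cells. Nephric marker-positive cells had 3.53, 2.96 and 1.43 CPM of *ITGA3*. *ITGA5* was at 6.30, 4.32 and 4.79 CPM in endothelial-like cells, on 9, 8 and 2 UMIs. The ratios of *ITGA5* to the other kept cells were 14.1 [6.03 to 29.2], 6.15 [2.54 to 12.9] and 4.58 [0.548 to 16.9], so the last cannot be told from no difference, and 7.73, 4.35 and 3.53 without erythroid-like cells. No *ITGA3* UMI was found in somitic-like cells of any library.

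*VCAM1*, the cell-surface ligand of receptors with *ITGA4* or *ITGA9* subunits, was enriched in mesenchymal-like cells. Its level there was 18.9 CPM [17.0 to 21.1], 13.4 CPM [11.9 to 15.1] and 3.93 CPM [3.33 to 4.60], or 7.90, 5.04 and 7.62 times the other kept cells and 3.92, 3.26 and 4.69 times without erythroid-like cells. The ratio was thus above 3-fold in each library under both comparisons, while the level in E16 HS was far lower. Neural-like cells held 4, 2 and 1 *VCAM1* UMIs. Endothelial-like cells, which carry VCAM1 protein in inflamed adult vessels, had 5, 11 and 0 UMIs. At E19 their level was 0.651 [0.210 to 1.53] and 1.15 [0.568 to 2.07] times that of the other kept cells. Without erythroid-like cells the ratios were 0.364 [0.118 to 0.854] and 0.823 [0.408 to 1.49], so only E19 HSTS was then lower. The 0 UMIs in E16 HS allow up to 7.19 CPM, more than the mesenchymal-like level there, so absence is not shown. In E19 HS somitic-like cells had 13.1 CPM [6.28 to 24.1] on 10 UMIs, beside 4 and 1 UMIs in E19 HSTS and E16 HS.

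**Figure D3:**
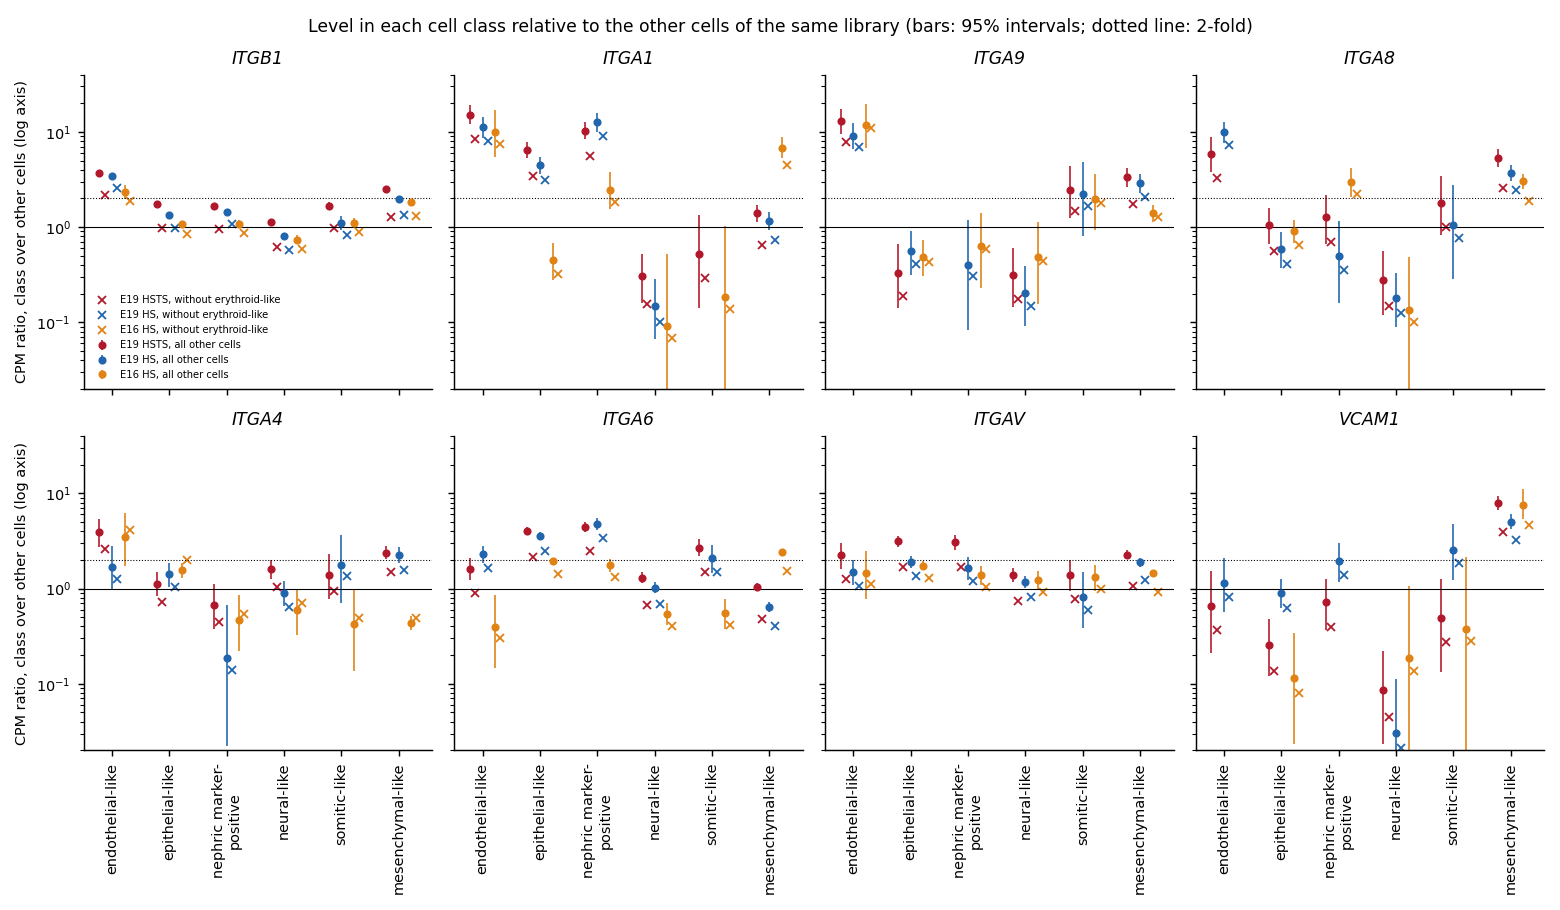
Ratio of the level of each of the 8 members with enough UMIs in a class to its level in all other kept cells of the same library (dots with exact 95% intervals, log axis) and in those cells without erythroid-like cells (crosses, no intervals). Points with 0 UMIs in the class are not drawn and bars that pass the lower edge are cut there. *ITGA1* and *ITGA9* in endothelial-like cells and *ITGA8* and *VCAM1* in mesenchymal-like cells have their dots above the dotted 2-fold line in all 3 libraries.

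The mesenchymal-like class was mixed in its keratin, and several members, among them *ITGA6* and *VCAM1*, divided along that line. The share of all genes that divided in the same way is not given here. Whether the division is particular to these members was therefore not tested. Cells with a *KRT18* UMI had *ITGA6* at 32.9 CPM [29.6 to 36.5], 21.9 CPM [19.3 to 24.8] and 63.4 CPM [60.8 to 66.0]. Cells without one had 13.0 CPM [10.4 to 16.0], 9.70 CPM [7.79 to 11.9] and 17.3 CPM [13.6 to 21.7]. *VCAM1* went the other way, at 13.5, 6.77 and 3.69 CPM with and 27.6, 21.9 and 5.85 CPM without a *KRT18* UMI, although the E16 HS intervals of 3.09 to 4.39 and 3.78 to 8.63 CPM overlapped. *ITGA9* was also lower with a *KRT18* UMI, at 5.30, 5.14 and 3.84 CPM against 11.7, 9.81 and 6.32 CPM without. *ITGA4* was at 12.1, 6.77 and 3.47 CPM with and 15.8, 11.9 and 9.82 CPM without. The intervals overlapped for *ITGA9* in E16 HS and for *ITGA4* in E19 HSTS. *ITGA1* was at 7.13 CPM with and 13.1 CPM without in E16 HS, and its intervals overlapped at E19. *ITGB1* was at 311, 287 and 218 CPM with and 314, 279 and 232 CPM without, and *ITGAV* at 27.6, 25.8 and 27.0 CPM with and 25.0, 24.5 and 24.8 CPM without. The split was chosen after the data were seen, and cells with a *KRT18* UMI were somewhat deeper, with a median of 10663 against 7176 UMIs in E16 HS. In cells without a *KRT18* UMI the *ITGA6* level of E16 HS and of E19 HSTS had overlapping intervals, whereas over the whole class it was 58.4 CPM [56.0 to 60.8] against 25.2 CPM [23.0 to 27.7]. The intervals of E16 HS and E19 HS did not overlap in cells without a *KRT18* UMI either.

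**Figure D4:**
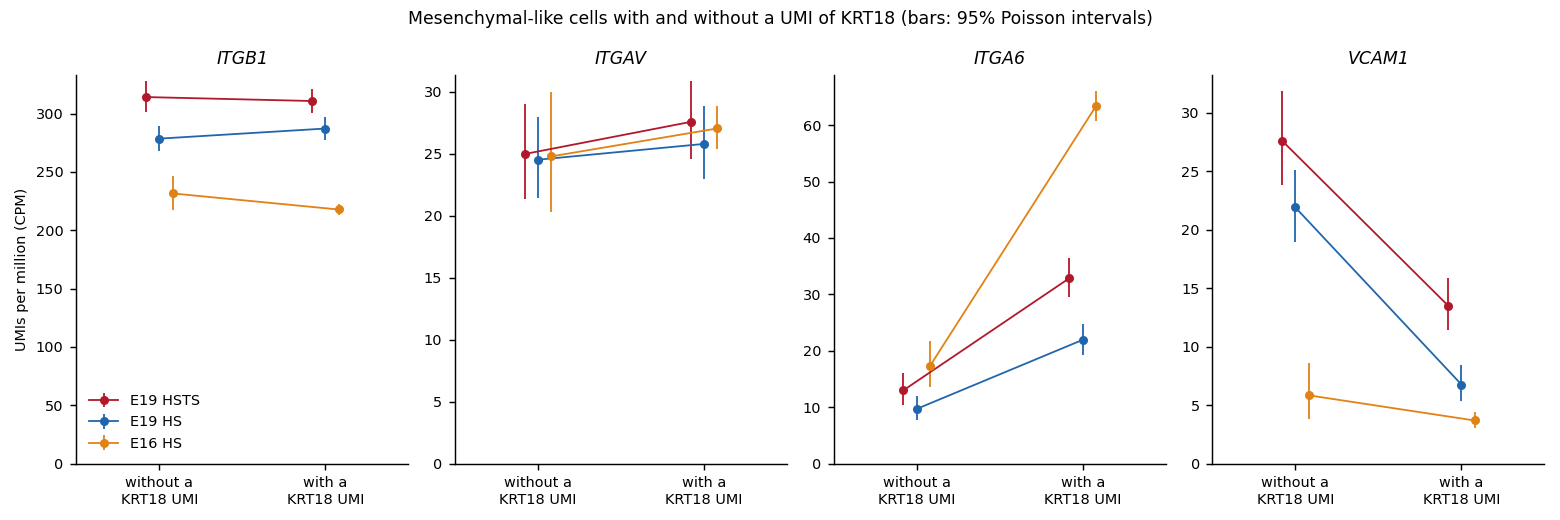
Levels of *ITGB1*, *ITGAV*, *ITGA6* and *VCAM1* (CPM, linear axes from 0) in mesenchymal-like cells without and with a *KRT18* UMI, with lines joining the values of a library and bars for exact 95% Poisson intervals. *ITGA6* is higher and *VCAM1* lower in cells with a *KRT18* UMI, while *ITGB1* and *ITGAV* lie at nearly the same level in both.

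In the examples below, *ITGA6* was detected about as often in cells of a class with and without an *ITGB1* UMI. For *ITGAV* and *ITGA1* the shares differed in 1 class each of E16 HS among the examples. The examples come from all alpha subunits, classes and libraries. How many of all pairs had intervals that did not overlap is not given here, so no pattern of co-detection is read from them. Among thinned epithelial-like cells, *ITGA6* was detected in 23.3%, 17.7% and 16.5% of cells with an *ITGB1* UMI and in 24.1%, 17.2% and 15.0% of those without. Among thinned mesenchymal-like cells of E16 HS, *ITGA6* was detected in 12.3% with and 12.1% without. *ITGA1* in endothelial-like cells was at 17.9%, 15.7% and 10.3% with and at 13.2%, 4.00% and 5.26% without an *ITGB1* UMI, but only 38, 50 and 19 thinned cells lacked one and the intervals overlapped. The intervals did not overlap for *ITGAV* in epithelial-like cells of E16 HS, at 15.2% [12.1 to 18.8] with and 8.23% [6.34 to 10.5] without, while E19 HS had 7.98% and 9.31%. They did not overlap either for *ITGA1* in mesenchymal-like cells of E16 HS, at 2.84% [2.08 to 3.78] with and 1.08% [0.663 to 1.67] without. Detection at 3000 UMIs misses most molecules of these genes, so a cell without a UMI is not a cell without the transcript.

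Genes of the same pathway were counted from lists of other alpha subunits, other beta subunits, ligands and adaptors, by the 2-fold rule in each library. In endothelial-like cells 4 of 18 tested ligand genes were higher and 4 lower, and 5 of 12 tested adaptors were higher and none lower, where 6.19% of all genes tested were higher and 5.74% lower. The basement membrane collagen gene *COL4A1* stood there at 1317, 1362 and 798 CPM, *COL4A2* at 267, 263 and 173 CPM and the fibronectin gene *FN1* at 178, 178 and 149 CPM. The basement membrane linker gene *NID1* had 13.3, 21.6 and 21.6 CPM. Among the adaptors the talin gene *TLN1*, which links integrin tails to actin, had 351, 293 and 314 CPM and the focal adhesion gene *ZYX* 227, 234 and 371 CPM, joined by *VCL*, *PTK2* and *PARVA*. *TNC*, the gene of the *ITGA9* receptor ligand tenascin C, was among the lower ligand genes in endothelial-like cells, with 0 UMIs in both other libraries and 1.62 CPM in E19 HS. It was higher in mesenchymal-like cells at 20.8, 22.2 and 10.5 CPM.

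Epithelial-like and nephric marker-positive cells shared 3 higher ligand genes of 18 tested, *NPNT*, *FRAS1* and *FREM2*, where 3.27% and 2.69% of all genes tested were higher. *NPNT*, which encodes the *ITGA8* receptor ligand nephronectin, was at 26.7, 29.6 and 16.5 CPM in nephric marker-positive cells, or 15.0, 13.1 and 7.93 times the other kept cells. *ITGA8* itself was there at 4.18, 2.46 and 13.6 CPM. The kindlin gene *FERMT1*, an integrin activator of epithelia, was at 36.3, 29.5 and 32.4 CPM in epithelial-like cells. Of the beta subunits that could replace the *ITGB1* product, *ITGB4*, the partner of *ITGA6* in hemidesmosomes, had only 3.60, 1.57 and 3.91 CPM there.

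In neural-like cells 7 of 18 ligand genes were lower and none higher, where 5.41% of all genes tested were lower and 3.03% higher. *LAMB1*, *TNC*, *NID1* and *NPNT* were among the lower ones. Higher there were the subunit genes *ITGA2* at 17.0, 9.15 and 17.0 CPM and *ITGB8*, a partner of *ITGAV*, at 6.04, 6.43 and 4.56 CPM. *ITGB5*, another partner of *ITGAV*, was lower in neural-like cells. Mesenchymal-like cells had 5 of 18 ligand genes higher, *LAMB1*, *COL4A1*, *COL4A2*, *TNC* and *FREM1*, where 3.75% of all genes tested were. Somitic-like cells had none higher and 3 lower, where 1.47% and 4.08% of all genes tested were. *ITGA2*, a collagen receptor subunit, was at 41.3 and 49.7 CPM in endothelial-like cells at E19, near *ITGA1*, and at 7.19 CPM on 3 UMIs in E16 HS. *ITGB3* was not analysed here.

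Between the 2 day-19 libraries none of the 10 members differed by 1.5-fold or more over all kept cells. *ITGA8* at 0.673 [0.582 to 0.778] and *ITGA5* at 0.684 [0.469 to 0.993] stood just inside that limit. Among all genes tested 3.68% were at least 1.5-fold higher in E19 HSTS and 5.87% at least 1.5-fold lower. The sums over a library mix how many cells of each class were caught and how much each class expressed, which cannot be told apart in them. With erythroid-like cells left out, *ITGA3* (1.62) and *ITGA4* (1.55) were past 1.5-fold higher in E19 HSTS. The median of all genes itself then stood 0.21 higher on the log2 scale. Of all genes tested, 8.75% were then past 1.5-fold higher and 2.13% past 1.5-fold lower. Within classes, *ITGA4* was higher in E19 HSTS than in E19 HS by 3.08-fold [1.68 to 5.91] in endothelial-like cells, 2.30-fold [1.62 to 3.31] in neural-like cells and 2.70-fold [1.79 to 4.21] in erythroid-like cells, but not in epithelial-like cells at 1.12 [0.757 to 1.67]. *ITGA8* in endothelial-like cells was lower in E19 HSTS, with a ratio of 0.438 [0.269 to 0.691]. *VCAM1* was higher in mesenchymal-like cells at 1.41 [1.20 to 1.66] and lower in epithelial-like cells at 0.306 [0.136 to 0.630], on 10 against 36 UMIs. *ITGB1* ratios in the described classes lay between 0.973 and 1.33. For ratios within classes, here and between the days below, the shares of all genes are not given. A shift of a member is therefore not told apart from a general shift in its class.

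Between E16 HS and E19 HS, *ITGA6* was 1.53-fold higher [1.46 to 1.62] and *VCAM1* lower at a ratio of 0.328 [0.276 to 0.389] in E16 HS over all kept cells. So 1 of 10 members was past 1.5-fold higher, where 22.3% of all genes tested were, and 1 of 10 lower, where 9.39% were. With library sums scaled by the trimmed mean of M values the shares of all genes were 11.7% and 14.0%, *ITGA6* was at 1.33, *VCAM1* at 0.284, and *ITGA1* joined the lower side at 0.605. Both libraries are of Hu sheep, and day, library and the number of embryos cannot be told apart.

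**Figure D5:**
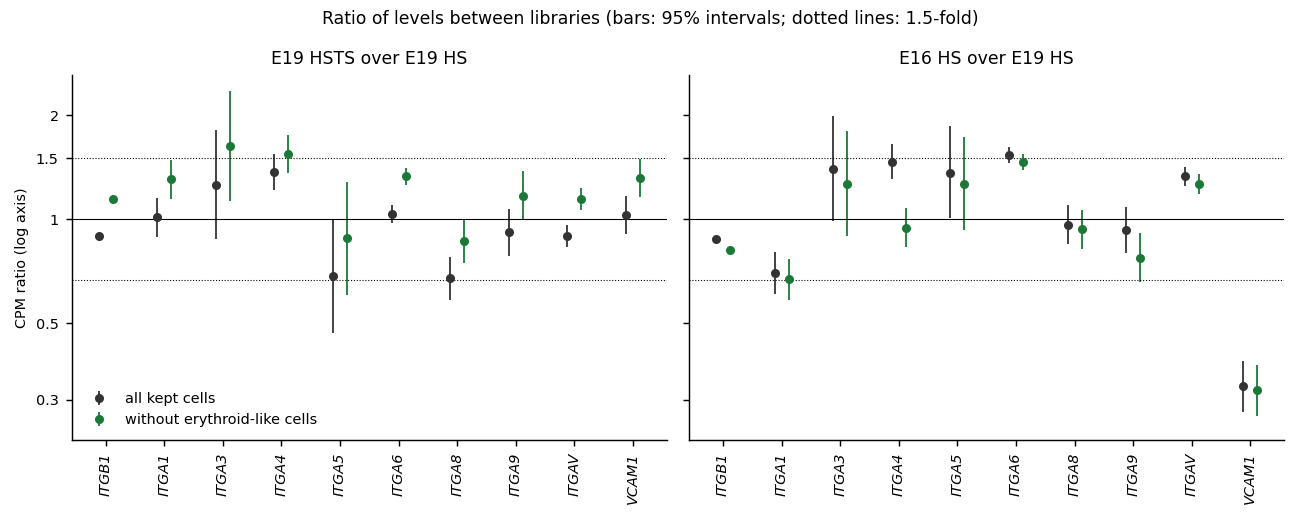
Ratio of each member's level between libraries (log axis) over all kept cells (black) and without erythroid-like cells (green), with exact 95% intervals and dotted lines at 1.5-fold. Over all kept cells no member passes the lines between the day-19 libraries, while between E16 HS and E19 HS *ITGA6* stands at 1.53 and *VCAM1* at 0.328.

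*ITGB1* was lower in E16 HS in each described class, with ratios from 0.625 in endothelial-like to 0.869 in somitic-like cells, the latter with an interval of 0.708 to 1.07. *ITGA6* was 3.53-fold higher [3.15 to 3.96] in mesenchymal-like cells, yet lower in endothelial-like cells at 0.272 [0.0973 to 0.613] and in somitic-like cells at 0.414 [0.248 to 0.685]. *ITGA1* was lower in epithelial-like cells at 0.098 [0.060 to 0.153] and in nephric marker-positive cells at 0.167 [0.101 to 0.265], while in endothelial-like cells it was at 0.740 [0.388 to 1.31]. *ITGA4* was 9.93-fold higher [6.74 to 15.2] in erythroid-like cells of E16 HS and lower in mesenchymal-like cells at 0.461 [0.371 to 0.571]. *VCAM1* was lower in mesenchymal-like cells at 0.292 [0.239 to 0.357]. The leading genes of epithelial-like cells and the *KRT18* share of mesenchymal-like cells, given above, also differed between the days, and their part in these ratios was not tested.

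Of the listed genes with enough UMIs, which were 2 other alpha subunits, 2 other beta subunits, 21 ligands and 14 adaptors, none differed by 1.5-fold between the day-19 libraries. Between E16 HS and E19 HS, 11 of 20 tested ligand genes were higher and 3 lower in E16 HS, where 22.3% and 9.39% of all genes tested were. Among the higher ones were *FN1*, *COL4A1*, *COL4A2* and *SPP1* and the laminin genes *LAMA4*, *LAMA5*, *LAMB1*, *LAMB2* and *LAMC1*. The listed genes are not recounted here with the trimmed mean scaling, under which 11.7% of all genes were higher and 14.0% lower. Of the adaptors 5 of 14 were higher and none lower, and of 4 tested beta subunits *ITGB4* and *ITGB7* were higher and *ITGB8* lower. The median log2 ratio of the ligand genes was 0.64 and that of the 10 members 0.18, beside 0.25 over all genes tested.

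The profile of each member over classes was compared with that of 5916 other genes. The 31 profile points were classes of at least 50 cells in the 3 libraries, so points share libraries and depth and the correlations are a description only. *ITGB1* was most like *APP* (Pearson r = 0.95), *REEP3* and *TAX1BP3*, and *ITGA6* most like *STK39* (0.91), *PNKD* and *MDH1*. *ITGAV* was most like *BPNT2* (0.93), *DOCK1* and *NEK1*. *ITGA1* was most like *MAN1A1* (0.83), *ITM2B* and *DAB2*, and *ITGA9* most like the endothelial gate gene *PLVAP* (0.82), *NMI* and *FRZB*. *VCAM1* was most like the cardiac actin gene *ACTC1* (0.87), *ANKRD1* and *IFITM5*. *ITGA3* was most like *AP1M2* (0.83), *IGFBP7* and *CCDC68*, *ITGA4* like *CEP63* (0.75), *NT5C3A* and *PPP1R8*, *ITGA5* like *IPO11* (0.78), *PLOD3* and *ETS2*, and *ITGA8* like *MOV10* (0.67), *SSNA1* and *PLPP3*. Among the members themselves the closest pair was *ITGB1* with *ITGAV* (0.77), followed by *ITGB1* with *ITGA6* (0.74) and *ITGA5* with *ITGA9* (0.73), while *VCAM1* and *ITGA4*, ligand and receptor subunit, were at -0.20.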

How the data were processed

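Whole sheep embryos were profiled by droplet 3' single-cell RNA-seq in 3 libraries. The authors deposited UMI counts per gene and cell, made with Cell Ranger 6.1.2 on Ovis_aries_genome_v1.0, and their processing notes also name R 4.1.2 and Seurat 4.1.1. Groups were taken from the sample titles. From the raw counts, cells were kept within 200 to 6000 genes and 1000 to 30000 UMIs, with no more than 10% of UMIs mitochondrial. Each cell joined the marker class with the most gate genes detected (at least 2), and counts were summed per class and library. No doublet caller was run, and doublets were limited only by the upper bounds on genes and UMIs and by 1 alternative that refused cells with several gate genes of another class. Levels are counts per 1e+06 UMIs (CPM) with exact Poisson intervals, shares carry Clopper-Pearson intervals and ratios exact conditional intervals, all at 95% and for counting error only. Shares were compared after thinning each cell to 3000 UMIs, shallower cells left out. A count of 0 was given a limit of 3 counts. Likeness was the Pearson correlation of log2(CPM + 1). Simulated data were used to test class assignment, ratios and thinning. Analyses used Python 3.11.15, numpy 2.4.6, scipy 1.17.1 and pandas 2.3.3, with edgeR 4.0.16 for TMM factors alone.

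Named genes were the 10 members, marker genes as checks, at most 6 genes per pathway list by level or by the 2-fold rule, and the 3 genes most like each member. The members and lists were chosen with earlier results of these data known. Total UMIs over kept cells were 99580051 (E19 HSTS), 88733467 (E19 HS) and, at day 16, 113213654 (E16 HS). With 1 library per group no test was possible. Alternatives were stricter and no cell filters, 3 gate genes, at most 1 gate gene of another class, thinned counts, no count filter, leaving out erythroid-like cells, TMM scaling, at least 2 UMIs for detection, and 2 chosen after seeing the data (the nephric marker-positive cells, and leaving out mesenchymal-like cells with a KRT18 UMI).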

Additional observations from a re-analysis of the deposited data

Results flagged for a closer look

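For 7 combinations of member and class, at least 1 E19 library and E16 HS lay on opposite sides of the other kept cells of their own library. The differences between libraries were not tested, since each condition has 1 library. *ITGA6* in endothelial-like cells was 1.62 and 2.31 times the other kept cells in E19 HSTS and E19 HS but 0.397 times in E16 HS, there on 6 UMIs, and 0.90, 1.65 and 0.30 times when erythroid-like cells were left out of the comparison. In somitic-like cells its ratios were 2.69, 2.08 and 0.551 in the same order, and 1.5, 1.49 and 0.416 without erythroid-like cells. In neural-like cells *ITGA6* was at 1.29 in E19 HSTS and 0.543 in E16 HS, but at 0.676 and 0.408 without erythroid-like cells, both below 1. In mesenchymal-like cells the direction was the other way round, with 0.644 in E19 HS and 2.40 in E16 HS, and 0.408 and 1.53 without erythroid-like cells. *ITGA1* in epithelial-like cells was at 6.51, 4.47 and 0.450, and without erythroid-like cells at 3.45, 3.10 and 0.322. *ITGA4* in mesenchymal-like cells was at 2.37, 2.24 and 0.437, and without erythroid-like cells at 1.48, 1.56 and 0.487. With mesenchymal-like cells that had a *KRT18* UMI left out, the E16 HS ratios in that class were 0.713 for *ITGA6* and 1.03 for *ITGA4*. *ITGA4* in neural-like cells was at 1.60 in E19 HSTS and 0.591 in E16 HS, and at 1.03 and 0.698 without erythroid-like cells.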

How the results depend on the processing

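No paired analysis was possible because each condition has 1 library, and for the same reason no replicate could be left out. Counts of alpha subunits at least 2-fold higher in a class in each library moved as follows. For endothelial-like cells the count was 2 and became 0 with thinned cells, where only 4 alpha subunits had enough UMIs to be counted, 3 with at most 1 gate gene of another class (*ITGA4* added) and 3 with no count filter (*ITGA5* added). For epithelial-like cells it was 0 and became 1 with 3 gate genes (*ITGA6*) and 1 with no count filter (*ITGA3*). For nephric-like cells it was 0 and became 1 with all deposited cells (*ITGA1*), 1 with thinned cells (*ITGA6*) and 1 with the nephric marker-positive cells (*ITGA1*). In nephric marker-positive cells of E16 HS *ITGA1* fell to 1.85 with erythroid-like cells left out, under 2-fold. For somitic-like cells it was 0 and became 1 with the stricter cell filter and 1 with all deposited cells (*ITGA9*). For mesenchymal-like cells it was 1 and became 0 with at most 1 gate gene of another class, 0 with erythroid-like cells left out and 2 with *KRT18*-positive cells left out. Members past 1.5-fold between the day-19 libraries numbered 0. The count became 2 with the stricter filter or all deposited cells (*ITGA5* and *ITGA8* lower), where 6.62% and 5.73% of all genes tested were lower. With erythroid-like cells left out it was 2 as well (*ITGA3* and *ITGA4* higher), where 8.75% of all genes tested were higher. Between E16 HS and E19 HS the count of 2 became 1 (*VCAM1*) with erythroid-like cells left out and 3 with the stricter filter (*ITGA3* and *ITGA6* higher, *VCAM1* lower). It stayed 2 thinned or TMM scaled, but then with *ITGA1* and *VCAM1*, both lower. Of all genes tested 24.3% were higher and 8.53% lower with the stricter filter. The lower share was 11.7% with erythroid-like cells left out, 8.60% thinned and 14.0% TMM scaled. The cause of these moves was not tested. Ratios that changed side were *VCAM1* in somitic-like cells of E19 HSTS (1.03 with 3 gate genes, 1.71 thinned) and of E19 HS (0 UMIs thinned), *ITGA6* in somitic-like cells of E19 HS (0.868 thinned), *ITGA1* and *ITGA4* in somitic-like cells of E16 HS (1.66 and 1.40 thinned), and, with *KRT18*-positive cells left out, *ITGA6* (0.713) and *ITGA4* (1.03) in mesenchymal-like cells of E16 HS. Leaving out erythroid-like cells moved 7 ratios, each under 2-fold, from above 1 to below 1 with intervals that exclude 1 both ways. In E19 HSTS these were *ITGB1* (1.14 to 0.625), *ITGA6* (1.29 to 0.676) and *ITGAV* (1.39 to 0.734) in neural-like and *ITGA1* (1.40 to 0.644) in mesenchymal-like cells. The others were *ITGAV* in neural-like cells of E19 HS (1.17 to 0.806) and, in E16 HS, *ITGB1* in epithelial-like (1.09 to 0.846) and *ITGAV* in mesenchymal-like cells (1.45 to 0.920). Depth limits *ITGA3* and *ITGA5* in all classes, and every member in the 52 endothelial-like cells of E16 HS.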

Other observations

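Cardiomyocyte-like cells, outside the described classes, had *ITGA6* as 85.7%, 81.3% and 67.4% of alpha UMIs (E19 HSTS, then E19 HS, then E16 HS). The *ITGA6* level in these cells was 140 CPM [122 to 159], 104 CPM [86.5 to 123] and 69.8 CPM [46.7 to 100]. Their *VCAM1* level of 68.1, 39.0 and 62.6 CPM, on 111, 49 and 26 UMIs, was above that of mesenchymal-like cells in each library. In E16 HS these UMIs came from 5 of 54 cells (9.26%). No *ITGA8* UMI was found in them at E19. Neuron-like cells had *ITGB1* at 290, 250 and 157 CPM, above the neural-like cells at E19 and with overlapping intervals in E16 HS, with 0.172, 0.193 and 0.467 alpha UMIs per *ITGB1* UMI.

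Caudal-like cells, numerous only in E16 HS, had *ITGAV* at 51.4 CPM [42.4 to 61.8] on 113 UMIs, *ITGA6* at 27.7 CPM on 61 UMIs and *ITGA5* at 5.91 CPM [3.15 to 10.1] on 13 UMIs, with 0 *VCAM1* UMIs. Hypotheses on these values were not tested.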
